A study of Mus musculus with 2 samples.

Results

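The genes described here are 35 genes of the contractile apparatus, calcium handling and energy supply of heart muscle cells. They were followed in cells sorted as neural crest from embryonic mouse hearts with and without Adam19. The genes were taken from a given list of symbols. A transcript cluster, the set of array probes that reports a transcript, counted when the annotation gave it exactly 1 symbol, and the brightest cluster stood for a gene. All 35 were measured, among 19938 genes in all. The 35 were divided by textbook knowledge into 4 atrial genes (Myl7, Myl4, Sln and Nppa), 3 ventricular genes (Myl2, Myl3 and Myh7) and 28 genes that both chambers share or that have no clear chamber.

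Cells came from hearts of mouse embryos at stage E14.5 on a C57BL/6 background. The reference sample had the genotype Adam19+/+; Wnt1-Cre; R26tdTomato/+, and the sample without Adam19, which encodes a membrane metalloprotease, had the genotype Adam19-/-; Wnt1-Cre; R26tdTomato/+. Both carried the Wnt1-Cre driver, which is active in the early neural crest, and a red fluorescent reporter that Cre switches on for good. The sort therefore aimed at descendants of Wnt1-Cre cells, whatever they have become. Whether other heart cells or their RNA were carried along was not tested. Hearts were dissociated with collagenase, and tdTomato-positive cells were collected by flow sorting. Neither the number of embryos pooled nor their sex is stated in the labels. There was 1 Affymetrix Mouse Gene 1.0 ST array per genotype (n = 1). Every difference below is therefore the log2 signal of 1 Adam19-/- array minus that of 1 Adam19+/+ array, with no replicate, no error and no test.

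In heart muscle, myosin of the thick filament pulls on actin of the thin filament. Calcium released from the sarcoplasmic reticulum binds troponin C and lets the motor engage, and the calcium pump then refills the store under the brake of phospholamban or sarcolipin. Atria and ventricles build the same machine from partly different isoforms, chiefly of the myosin light chains. Cardiac neural crest gives rise mostly to smooth muscle of the great arteries, outflow mesenchyme, autonomic neurons and glia. Smooth muscle uses its own myosin and actin isoforms but shares some genes with the heart, Actc1 among them.

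The labels and the cell type were checked first. Adam19 had a log2 signal of 11.62 in Adam19+/+ and 9.77 in Adam19-/- cells, the largest decrease of all genes, and this has the direction of the labels. Of 8 measured markers of crest, autonomic neurons and glia, all 8 were above the expression floor on both arrays, among them Sox10 and Ret. The floor is the median of the genes' mean log2 signal, 8.01, a middle level and no limit of detection. All 15 smooth muscle markers were above it on both arrays as well. So were 2 of 7 erythroid markers, Hba-x and Hbb-y, 6 of 10 endothelial markers and 2 of 16 leukocyte markers. Between the arrays, Y-linked genes and leukocyte markers also differed, as given with the cell type lists further on. None of the 35 genes lies within 20 Mb of Adam19, although Myl4, Myl7 and Tcap lie on its chromosome.

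Signal for heart muscle genes in these sorted cells ranged from dim to bright. Of the 35 genes, 18 were above the floor on both arrays, Myh6 was above it on the Adam19-/- array alone, and 16 were below it on both. Among all 19938 genes, 9830 were above it on both arrays and 9816 below it on both. The floor is a median, so this split of the 35 is close to that of all genes and is no trait of theirs. On the Adam19+/+ array the log2 signals ran from 5.41 for Sln to 11.70 for Actc1, with a median of 8.06. In Adam19-/- cells the median was 8.03. No gene of the 35 lay at the lowest value of the table, 4.09. Clusters differ in how strongly their probes bind, so the order of signals between genes is not an order of RNA amounts. In such sorted pools, the share of cells that express a gene and the amount of RNA per cell cannot be told apart. Whether part of the signal came from heart muscle cells outside the sorted lineage was not tested.

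**Figure D1:**
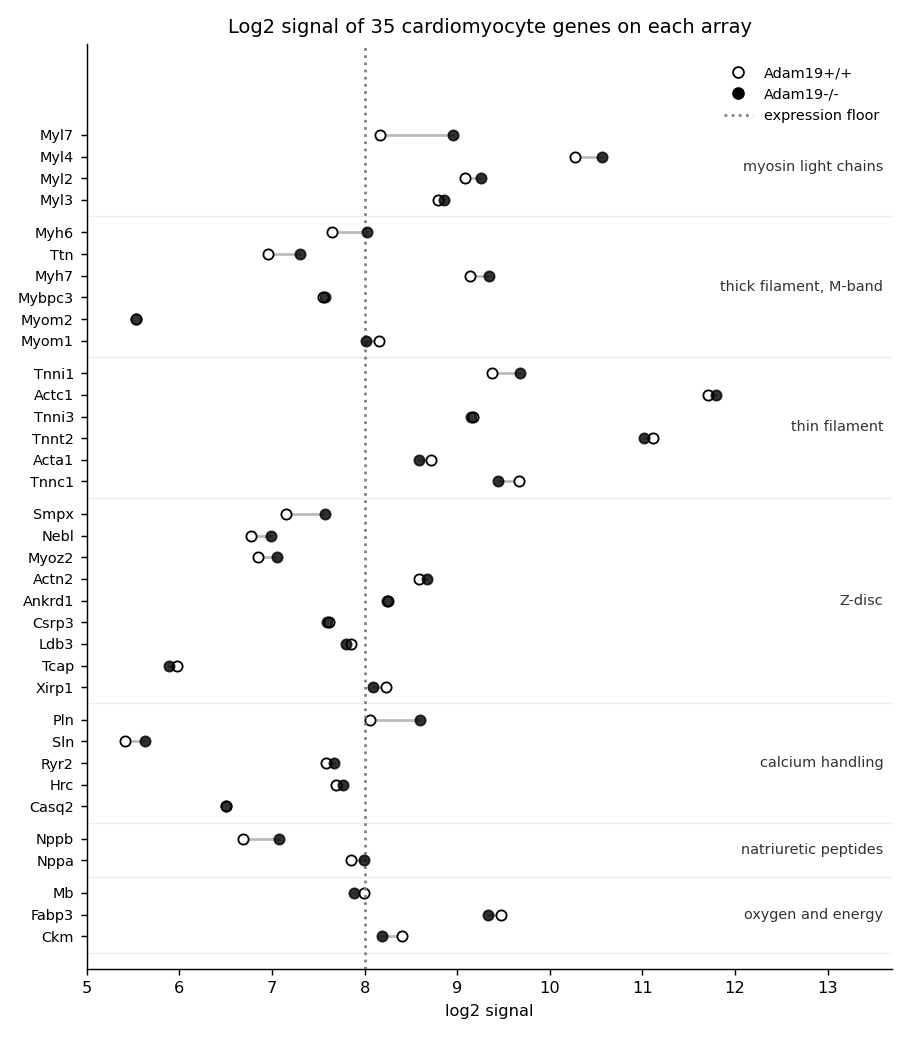
Log2 signal of each of the 35 genes (horizontal axis) on the Adam19+/+ array (open circle) and the Adam19-/- array (filled circle), grouped by role, with the expression floor of 8.01 as a dotted line; there is 1 array per genotype and no error bar. The filled circle lies to the right of the open one for all 4 myosin light chains, most of all for Myl7, and to the left for Tnnc1, Ckm and Fabp3.

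The 35 genes did not differ in 1 direction. In Adam19-/- cells 21 were higher, 13 lower and 1 equal, around a median difference of 0.08 on the log2 scale. Among all 19938 genes 51.7% were higher and 34.1% lower, around a median difference of 0.0061. Of the 35 genes, 8 were at least 1.2-fold higher (22.9%), against 5.07% of all genes, and 0 were at least 1.2-fold lower, against 2.02%. With differences centred on a lowess curve over all genes, 6 were higher by that fold, without Myl4 and Tnni1, and 2 lower, Tnnc1 and Ckm. The share of all genes past that fold was not counted after this centring, so 5.07% and 2.02% do not apply to these 2 counts. Only Myl7 was 1.5-fold higher, a size reached by 0.155% of all genes. The 8 were Myl7, Pln, Smpx, Nppb, Myh6, Ttn, Tnni1 and Myl4. Of these, Myl7, Myl4, Pln and Tnni1 were above the floor on both arrays, and Smpx, Nppb and Ttn were below it on both. Among the 18 genes above the floor on both arrays, 9 were higher and 9 lower (median 0.03). Of all 10122 genes above the floor on an array 65.2% were higher and 33.7% lower (median 0.04), a share of higher genes above that of these 18. The 10122 include 210 genes above it on the Adam19-/- array alone and 82 on the Adam19+/+ array alone. Of the 18, 4 were at least 1.2-fold higher and 0 at least 1.2-fold lower. With Myh6, 19 of the 35 genes were above the floor on an array, the same criterion as for the 10122. Of these 19, 5 were at least 1.2-fold higher, against 4.06% of the 10122, and 0 at least 1.2-fold lower, against 1.13%. Among the 16 below the floor on both arrays, 11 were higher, 4 lower and 1 equal (median 0.09), and 3 were at least 1.2-fold higher. Of all 9816 genes below it 37.7% were higher, 34.6% lower, 6.1% at least 1.2-fold higher and 2.94% at least 1.2-fold lower.

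**Figure D2:**
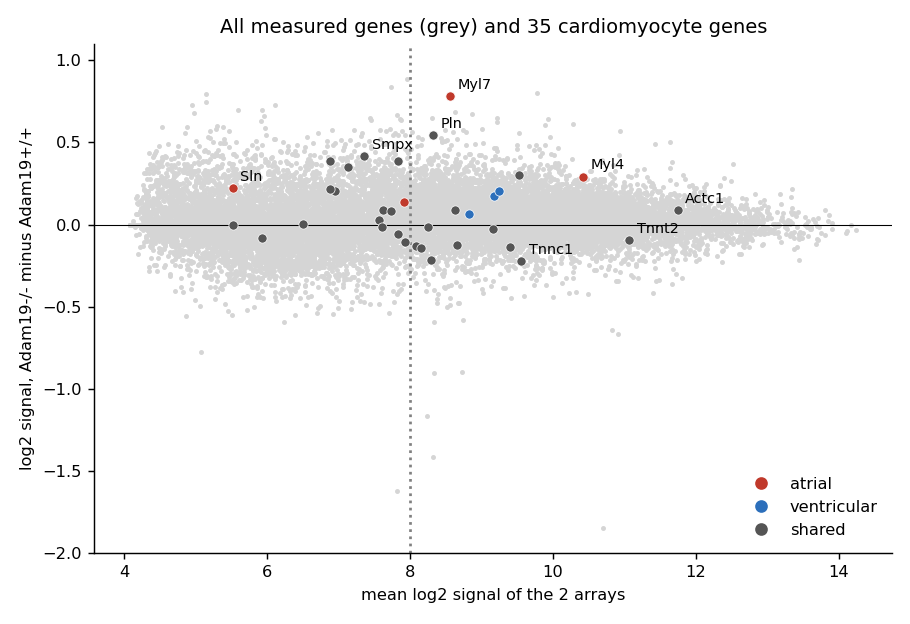
Difference in log2 signal, Adam19-/- minus Adam19+/+ (vertical axis), against the mean log2 signal of the 2 arrays (horizontal axis) for all 19938 genes in grey and the 35 heart muscle genes in colour by chamber class, with the floor dotted. Myl7 at 0.78 and Pln at 0.54 stand at the upper edge of the cloud, and the lowest of the 35, Tnnc1 at -0.22, lies inside it.

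As a measure of how well differences hold within an array, 999 genes had at least 2 clusters with their symbol. The differences from the 2 brightest lay a median of 0.07 apart, with a 95th percentile of 0.29. Of the 35 genes only Nebl and Fabp3 had a second cluster. Nebl was higher by 0.21 and by 0.16, and Fabp3 was at -0.14 and -0.19. Both clusters of each gene had the same sign. Whether both clusters of a gene read the same transcript was not tested. This gap contains no variation between embryos or between arrays of the same genotype.

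The promoters of 4 of the genes are shown because they span the range of differences: Myl7 and Pln have the largest increases, Myl3 is the ventricular light chain that differed least, and Tnnc1 has the largest decrease. Each is the 250 bases before the annotated start in RefSeq, GRCm38.p6, written 5′ to 3′ on the gene's strand, from chr11:5898783-5899032 (- strand), chr10:53337436-53337685 (+ strand), chr9:110763428-110763677 (+ strand) and chr14:31208062-31208311 (+ strand). Capitals mark matches to the 6 motifs named after the sequences.
Myl7: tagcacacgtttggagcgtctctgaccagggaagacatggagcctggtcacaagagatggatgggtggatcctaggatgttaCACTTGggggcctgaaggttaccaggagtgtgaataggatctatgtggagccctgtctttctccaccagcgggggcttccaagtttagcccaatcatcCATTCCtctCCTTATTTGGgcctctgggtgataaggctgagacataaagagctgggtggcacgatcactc
Pln: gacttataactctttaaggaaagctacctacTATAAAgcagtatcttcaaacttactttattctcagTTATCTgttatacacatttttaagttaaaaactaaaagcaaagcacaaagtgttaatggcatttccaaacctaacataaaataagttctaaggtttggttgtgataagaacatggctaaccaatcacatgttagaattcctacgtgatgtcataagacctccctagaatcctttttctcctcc
Myl3: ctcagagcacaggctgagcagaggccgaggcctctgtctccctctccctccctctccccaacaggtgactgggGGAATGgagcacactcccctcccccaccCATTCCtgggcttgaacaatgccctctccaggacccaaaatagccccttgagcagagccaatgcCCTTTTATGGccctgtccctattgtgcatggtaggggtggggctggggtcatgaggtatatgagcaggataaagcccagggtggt
Tnnc1: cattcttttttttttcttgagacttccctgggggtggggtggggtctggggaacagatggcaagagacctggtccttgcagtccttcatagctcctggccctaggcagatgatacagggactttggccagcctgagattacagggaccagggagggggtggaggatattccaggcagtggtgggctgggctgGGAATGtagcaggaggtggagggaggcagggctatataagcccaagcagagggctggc
Myl7 and Myl3 each hold a CArG box, the binding motif of serum response factor, and an M-CAT element, the motif of TEAD factors. Myl7 also holds an NKX2-5 motif. Of the 6 motifs as they were spelled for the search, Tnnc1 holds an M-CAT element alone. A TATA-like run near the Tnnc1 start has another spelling and was not counted. Pln holds a GATA motif and, far from its start, the letters read as a TATA box. Whether those letters act as a TATA box was not tested. The promoters that share M-CAT thus belong to genes at 0.78, 0.07 and -0.22.

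The same 6 motifs were looked for in the 42 windows listed for 31 of the 35 genes. Myom2, Sln, Tcap and Xirp1 are not listed. The TATA box was read as TATAAA on the gene's strand, and the others were looked for on both strands. Other spellings, such as the TATATAA in the windows of Ankrd1, Ckm and Tnnc1, were not counted, here or in all windows. The TATA shares below are therefore shares of the letters TATAAA at any position. M-CAT was read as CATTCC. The GATA motif, bound by GATA factors of the heart, was read as AGATAA. For NKX2-5, a homeobox factor of heart muscle, the letters were CAAGTG. The CArG box and the MEF2 site, which MEF2 factors bind, allow A or T at inner positions. No matches of different motifs overlapped in these windows. A CArG box stood in 19.0% of the 42 windows and in 1.47% of all 32851 windows of this length. The shares were 7.14% and 0.508% for the MEF2 site, 23.8% and 12.6% for M-CAT, 21.4% and 9.99% for GATA, 14.3% and 11.6% for NKX2-5, and 9.52% and 7.59% for the TATA box. Windows of 1 gene can overlap and are then not separate promoters. Among the 7 genes with a CArG box (Acta1, Actc1, Ldb3, Myl3, Myl7, Myom1 and Nebl) 4 were higher and 3 lower, between -0.13 and 0.78 with a median of 0.07. Among the 10 with M-CAT, 6 were higher and 4 lower. The 3 with a MEF2 site, Mybpc3, Myoz2 and Ttn, were higher by 0.02, 0.21 and 0.35. A match is a run of letters and no measured binding site.

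All 4 atrial genes were higher in Adam19-/- cells, as were 51.7% of all genes. Myl7, the atrial regulatory light chain (cluster 10384044), was at 8.17 in the Adam19+/+ and 8.95 in the Adam19-/- sample. This difference of 0.78, or 1.72-fold, was the fifth largest increase of all 19938 genes. From here on, each pair of log2 signals is given in the order Adam19+/+, Adam19-/-. Myl4, the atrial essential light chain that the whole embryonic heart also makes, was at 10.28 and 10.57, a difference of 0.29 or 1.22-fold. Sln, which encodes sarcolipin, the atrial inhibitor of the calcium pump, was at 5.41 and 5.63, far below the floor on both arrays. Nppa, atrial natriuretic peptide, was at 7.85 and 7.99, also below the floor, a difference of 0.14. The median of the 4 was 0.26. Without Myl7 it was 0.22, an alternative chosen after seeing the data.

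The 3 ventricular genes, all above the floor, were higher too, each by less than 1.2-fold. Of all genes above the floor on an array 65.2% were higher. Myl2, the ventricular regulatory light chain and counterpart of Myl7, was at 9.09 and 9.26, a difference of 0.17. Myl3, the ventricular essential light chain and counterpart of Myl4, was at 8.79 and 8.85, a difference of 0.07, no larger than the median gap between clusters of a gene. Myh7, the slow myosin heavy chain that predominates in the fetal ventricle, was at 9.14 and 9.34, a difference of 0.20. Within each pair of light chains the isoform named atrial had the larger difference, 0.78 against 0.17 for the regulatory and 0.29 against 0.07 for the essential chain. Because the whole embryonic heart makes Myl4, the essential pair is no clean contrast of chambers at this stage. The alternative chamber classes left Myl4 and Nppa in the atrial class. On the Adam19+/+ array the 3 ventricular genes lay between 8.79 and 9.14 and the atrial genes between 5.41 and 10.28. Differences ran from 0.07 to 0.20 in the ventricular and from 0.14 to 0.78 in the atrial class, so the classes overlap. With 1 array per genotype, whether the classes differ was not tested.

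The 28 shared genes had no common direction, with 14 higher, 13 lower and 1 equal and a median of 0.0025. Their differences ran from -0.22 to 0.54, and 6 of them (21.4%) were at least 1.2-fold higher, against 5.07% of all genes. At least 1.2-fold lower were 0, against 2.02%.

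**Figure D3:**
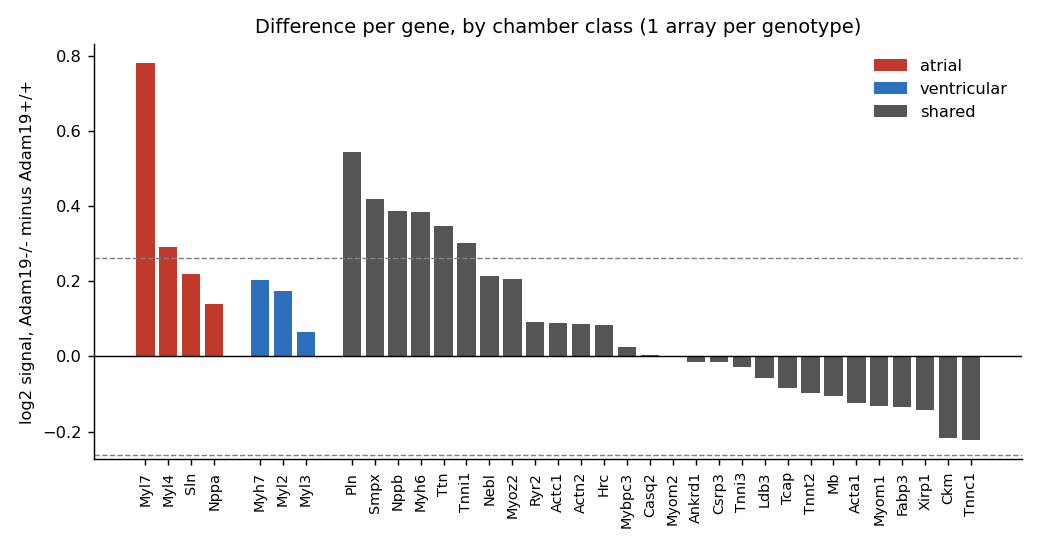
Difference in log2 signal, Adam19-/- minus Adam19+/+, for each of the 35 genes, ordered within the atrial, ventricular and shared class; dashed lines mark 1.2-fold in either direction, and each bar rests on 1 array per genotype. All 7 bars of the atrial and ventricular classes are above 0, whereas the 28 shared genes run from 0.54 for Pln to -0.22 for Tnnc1.

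Counts by role, here and below, are to be read beside the 51.7% of all genes that were higher and the 34.1% that were lower. By role, all 4 myosin light chains were higher, and so were 4 of 6 thick filament and M-band genes, with 1 lower and 1 equal. Of the latter, Myh6, the fast myosin heavy chain of the atria and the adult mouse ventricle, was at 7.64 and 8.03, higher by 0.39, which is 1.31-fold. It crossed the floor on the Adam19-/- array alone. Myh6 and Myh7 are near-identical in sequence over long stretches, and the probe sequences were not used here, so a share of signal from one in the cluster of the other was not tested. Ttn, the giant spring titin, was at 6.96 and 7.31, higher by 0.35. Mybpc3, myosin-binding protein C, was at 7.55 and 7.57. In the M-band, which cross-links thick filaments, Myom1 was at 8.15 and 8.02. Myom2 was at 5.53 on both arrays, equal to the last digit, as were 14.2% of all genes and 27.7% of those below the floor on both arrays.

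Counting both heavy chains and all 4 light chains among the 35 genes, 6 of 6 myosin chains were higher, between 0.07 and 0.78 with a median of 0.25. All 6 were above the floor on an array, and of all genes there 65.2% were higher. Myh7b, a further myosin heavy chain gene outside the 35, went the other way. It was at 6.49 and 6.39, a difference of -0.10 below the floor on both arrays. The grouping was made, and Myh7b was named, after the values were seen. Without the 6 chains, the other 29 genes had a median of 0.0050, with 15 higher, 13 lower and 1 equal. Of these 29, 5 (17.2%) were at least 1.2-fold higher, against 5.07% of all genes.

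The thin filament had the opposite balance, with 4 of 6 genes lower and a median of -0.06. The troponin complex makes it sensitive to calcium. Tnnt2, cardiac troponin T, which ties the complex to tropomyosin, was at 11.12 and 11.02, a difference of -0.10. Tnnc1, the calcium sensor troponin C of heart and slow muscle (cluster 10413726), was at 9.67 and 9.45, a difference of -0.22, or 1.17-fold lower. The inhibitory subunits diverged. Tnni3, the cardiac troponin I that takes over around birth, was at 9.17 and 9.15. Tnni1, the slow skeletal troponin I that the fetal heart uses, was at 9.38 and 9.68, higher by 0.30 or 1.23-fold. All 4 troponin genes were above the floor on both arrays, and 3 of 4 were lower, a count that was likewise made after the values were seen. Of all genes above the floor on an array 33.7% were lower. The sarcomeric actins Actc1 and Acta1 were at 11.70 and 11.79, and at 8.72 and 8.59. Their coding sequences are near-identical, and signal from one in the cluster of the other was not tested.

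Z-disc genes, which anchor thin filaments and sense stretch, were mixed, with 4 of 9 higher, 5 lower and a median of -0.02. The largest increase was that of Smpx, a small stretch-responsive muscle protein, at 7.15 and 7.57, a difference of 0.42 or 1.34-fold and below the floor on both arrays. Nebl, the cardiac nebulin relative nebulette, and Myoz2, the calcineurin-binding calsarcin, were higher by 0.21 each, likewise below the floor. Among the genes above the floor, Actn2, sarcomeric alpha-actinin, was at 8.58 and 8.67, and Ankrd1, a stretch- and YAP-responsive ankyrin repeat protein, at 8.25 and 8.24. Xirp1, an actin-binding repeat protein, was at 8.23 and 8.09. The other members of this group were Ldb3 at -0.06, the titin cap Tcap at -0.08 and the LIM protein Csrp3 at -0.02.

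All 5 calcium-handling genes were higher, but 4 of them by little or at low signal. Pln encodes phospholamban, which restrains the calcium pump until it is phosphorylated (cluster 10363157). It was at 8.06 and 8.60, a difference of 0.54 or 1.46-fold, and ranked 57th among all increases. Sln, whose product sarcolipin is its relative in the atria, was higher by 0.22, or 1.17-fold, at the lowest signal of the 35 genes on the Adam19+/+ array. The release channel Ryr2 was at 7.58 and 7.67, a difference of 0.09. Hrc, a calcium-binding protein of the reticulum, was at 7.69 and 7.77, a difference of 0.08. Casq2, the calcium buffer calsequestrin, was at 6.50 on both arrays to 2 decimals. Apart from Pln, none of the 5 was above the floor.

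The natriuretic peptide genes Nppa and Nppb, which lie side by side and are made by atria and by trabecular myocardium of the embryo, were higher by 0.14 and 0.39. Nppb was at 6.68 and 7.07, below the floor on both arrays. The 3 genes of oxygen and energy supply were all lower. Ckm, muscle creatine kinase, was at 8.41 and 8.19, a difference of -0.22. Fabp3, the fatty acid carrier of heart and other tissues, was at 9.47 and 9.34. Mb, the oxygen store myoglobin, was at 7.99 and 7.88. None of the 3 reached 1.2-fold.

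Other genes of the same machinery, listed from textbook knowledge, were counted in the same way. Of 22 measured of 23 other sarcomere genes, 5 were higher, 15 lower and 2 equal, around a median of -0.09. Lower genes made up 68.2% of this list, against 34.1% of all genes and 33.7% of those above the floor. At 1.2-fold, 1 was higher, the ubiquitin ligase gene Trim55, at 6.84 and 7.17, and 1 was lower, the Z-disc and actin-binding protein gene Nexn, at 8.60 and 8.30. These counts of 1 in 22 are to be read beside the 5.07% and 2.02% of all genes, and say nothing particular about the list. Synpo2l differed by -0.24 and Hspb7, a small heat shock protein of muscle, by -0.18. Several genes of this list, such as Tpm1, Flnc and Pdlim5, are also made by smooth muscle. Of 18 measured of 20 other genes of calcium handling and excitation, 12 were higher and 6 lower, around a median of 0.05, and none differed by 1.2-fold. Their share of higher genes, 66.7%, is close to the 65.2% of all genes above the floor, where 14 of the 18 lay. S100a1, which enhances calcium cycling, was at 9.35 and 9.60. Jph2, which holds the reticulum to the cell membrane, was at 8.31 and 8.09. The calcium channel gene Cacna1c differed by -0.20 and the pacemaker channel gene Hcn4 by 0.17. Atp2a2, the calcium pump that phospholamban and sarcolipin restrain, was at 12.04 and 12.09. It is named here after its value was seen, and it is made in most cell types.

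Transcription factors of the heart gave no common direction, with 7 of 14 higher, 6 lower, 1 equal and a median of 0.01. Hand1, which lies near Adam19, was higher by 0.63, Tbx5, a factor of atria and left ventricle, by 0.48 at a signal below the floor, and Gata4 by 0.36. The ventricular factor Irx4 was at 6.13 and 5.87, a difference of -0.27 and also below the floor. Several of these factors, Gata4, Gata6, Tbx20 and Hand2 among them, are also expressed in outflow mesenchyme or neurons.

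**Figure D4:**
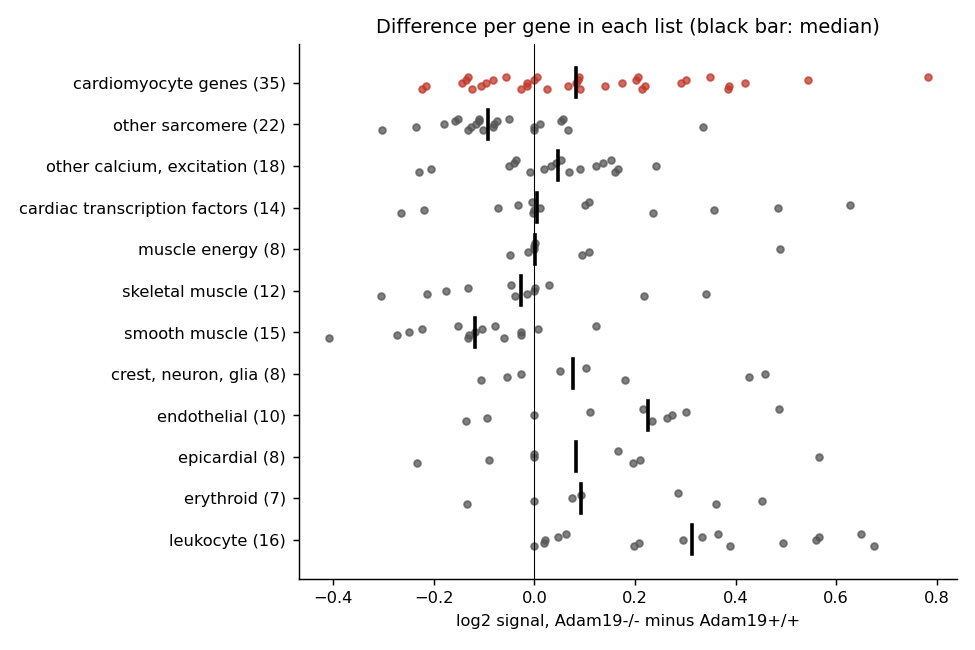
Difference in log2 signal, Adam19-/- minus Adam19+/+ (horizontal axis), for every measured gene of each list, with the number of genes in brackets and the median as a black bar; the vertical scatter within a row has no meaning. The 35 heart muscle genes spread from -0.22 to 0.78 around a median of 0.08, other sarcomere genes lie mostly below 0 and leukocyte markers mostly above.

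Markers of other cells moved on the same arrays. Their lists were chosen with earlier results of these data known, so a shared direction within a list is no independent finding. The linear signals of the 35 genes summed to 16234 (Adam19+/+) and 17168 (Adam19-/-), a ratio of 1.06, and for the 6 myosin chains the ratio was 1.22. For 16 leukocyte markers, of which 15 were higher and 1 equal around a median of 0.31, the sum was 2529 and 3318, a ratio of 1.31. Laptm5 differed by 0.68, C1qb by 0.65, and Fcer1g and Lyz2 by 0.56 each. Of the 16, 12 were below the floor on both arrays, Lyz2 among them. Of all genes below it 37.7% were higher. For 10 endothelial markers, 7 higher, 2 lower and 1 equal around a median of 0.22, the sums gave 1.15, and Nfatc1 of the endocardium differed by 0.49. For 7 erythroid markers, 5 of them higher, the ratio was 1.19, with Hbb-bh1 at 0.45 (below the floor on both arrays), Hba-x at 0.36 and Hbb-y at 0.29. For 8 epicardial markers, 4 higher, 2 lower and 2 equal, it was 1.12, with Tcf21 at 0.57 and Krt18 at -0.23.

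For 15 smooth muscle markers, 2 higher and 13 lower with a median of -0.12, the sums were 39577 and 36444, a ratio of 0.921. Itga8 differed by -0.41 and Kcnmb1 by -0.27. For 8 markers of crest, neurons and glia, 5 higher and 3 lower, the ratio was 1.09, with Th at 0.46 and Dbh at 0.43. Among Y-linked genes, Eif2s3y, Uty and Kdm5d differed by -1.62, -1.42 and -1.17. The female-specific transcript Xist differed by -0.11 (11.25 and 11.14), so it was not higher on the array with less Y-linked signal. Further, 4 of 4 measured nuclear-retained RNAs were lower, with Meg3 at -0.64 and Malat1 at -0.36. Of all genes 34.1% were lower. The Y-linked and nuclear-retained lists, too, were chosen with earlier results of these data known. No marker of these lists was at the lowest value of the table. The part of cell composition, sex or RNA handling in the differences of the heart muscle genes was not tested, and with 1 array per genotype it cannot be told apart from genotype.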

How the data were processed

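The deposited table held 28853 transcript clusters and 1 column of log2 signal per array. The sources used here do not state how the authors corrected background, normalised or summarised probes, nor the log base. The highest value, 14.52, stands for a linear signal of 23484 as log2 and of 2.02e+06 as a natural log, above the 65535 of a 16-bit scanner, so log2 was taken. The columns shared the lowest value, and 15.5% of clusters were equal in both, which a floor or normalisation set by the authors could give. Array medians were 7.49 (Adam19+/+) and 7.52 (Adam19-/-). The number of arrays limits precision.

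Of the clusters, 21789 had 1 symbol in the platform annotation of GEO, 1621 several and 5443 none listed; clusters with several or none were left out. Symbols were updated by Entrez identifier through RefSeq, GRCm38.p6 (21698 matched, 91 kept the older symbol). The brightest cluster stood for a gene. Computation used Python 3.11.15 (pandas 2.3.3 and numpy 2.4.6, lowess from statsmodels 0.14.6, plots from matplotlib 3.10.9), and the steps were tested on simulated data. All members are named; from each other list up to 4 genes with the largest absolute difference are named, apart from genes said to be chosen later, Sox10 and Ret as identity markers, and those given only as examples of expression elsewhere. The 35 genes, the classes and the lists were chosen with earlier results of these data known. Alternatives covered averaging clusters, quantile normalisation, lowess centring, adding 32 to the linear signal, 2 filters on low signal, other chamber classes and a 1.5-fold threshold.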

Additional observations from a re-analysis of the deposited data

How the results depend on the processing

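No paired analysis was possible because each genotype had 1 array, and no replicate could be left out. A median was called unmoved when it moved by at most 0.07, the median gap between clusters of a gene. The median of all 35 genes stayed between 0.03 and 0.09 under the other settings tried, but was 0.0050 without the 6 myosin chains, an alternative chosen after seeing the data. The atrial median was 0.54 over the 2 genes above the floor and otherwise between 0.21 and 0.29. The ventricular median stayed between 0.12 and 0.20, and no ventricular gene was left above the 75th percentile of signal. The shared median, 0.0025, had no stable sign: it was -0.0015 with lowess centring, -0.062 over genes above the floor, -0.0040 over the 2 genes above the 75th percentile and -0.015 without Myh6, Pln and Nppb. The count of 8 genes at least 1.2-fold higher was 6 with lowess centring (Myl4 and Tnni1 no longer counted), 5 over the 19 genes above the floor on an array, 1 over the 3 above the 75th percentile, 1 at 1.5-fold and 5 without the myosin chains. The count of 0 lower genes was 2 with lowess centring, namely Ckm and Tnnc1, both at -0.27. Shares of all genes past that fold were not counted after lowess centring. The direction of the 6 myosin chains and of the troponins was the same with quantile normalisation and lowess centring. Myl3, however, was then at 0.03 and 0.0072, both within the gap of 0.07. Adding 32 to the linear signal gave 0.13 for Sln, 0.35 for Smpx and 0.30 for Nppb. Of all genes, 9.05% differed by 1.2-fold in either direction below the floor and 5.19% above it.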

Other observations

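Genes of muscle energy supply outside the 35 showed no shared direction. Of 8 measured of 9 listed genes, 4 were higher, 2 lower and 2 equal, around a median difference of 0.00. Pgam2, the muscle form of phosphoglycerate mutase, was at 7.03 and 7.52, a difference of 0.49 below the floor on both arrays. Cox6a2, a heart and muscle subunit of cytochrome oxidase, differed by 0.11, Slc25a4, the mitochondrial exchanger of ATP and ADP, by 0.09, and Art1 by -0.05.

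Skeletal muscle markers were mostly low and did not share a direction. Of 12 markers, 4 were higher, 7 lower and 1 equal, around a median of -0.03, and the sums of their linear signals were 1240.0 and 1242 (Adam19+/+ and Adam19-/-). Only Actn3 was above the floor on both arrays, at 8.01 and 8.23. Myog, which starts skeletal muscle differentiation, differed by 0.34 and Myf5 by -0.31, both at signals near 5 to 6. Tnni2, the fast skeletal troponin I, differed by -0.21, whereas Tnni1 was higher by 0.30.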
